A study of Mus musculus with 6 samples.

Results

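Among the open-chromatin regions deposited as specific to microglia with or without miR-137, 581 of 12105 were wide and lay away from the ends of coding genes. They were selected by 2 values of each peak. The width was 600 bp or more, and the midpoint lay more than 1000 bp from both ends of every protein-coding gene. They are called wide distal peaks here, and 461 of them came from the 8615 peaks of the knockout list and 120 from the 3490 peaks of the control list. The assay was ATAC-seq, which reads accessible DNA through cuts made by Tn5 transposase, in 6 libraries of microglia sorted from C57BL/6J mouse brain. The protocol names about 50000 cells of a genotype. The knockout group (cKO, 3 libraries) was Mir137loxP/loxP;Tmem119-CreERT2 and the control group (cWT, 3 libraries) was Mir137+/+;Tmem119-CreERT2, all from mice labelled 8 weeks old. Both groups carried the Cre allele, a tamoxifen-inducible recombinase driven from the microglial gene Tmem119, and both had received tamoxifen on 7 days at an age of 7 to 8 weeks. The design text gives 4 mice, and no label links a library to an animal. The files hold 1 list per genotype with no value per library, so the spread between replicates cannot be given, the depth is unknown, and every interval and p-value below is over peaks and covers counting error only.

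Peak width is a readout of the same data that made the lists, and both width and position chose the members. The numbers, widths, signals and p-values of the wide distal peaks are therefore a description, with no test. The microglial identity of the cells rests on the labels. Of 25 coding genes of homeostatic microglia, 19 had at least 1 specific peak away from gene ends. It was 30 of the 96 genes that mark other cell types and 5160 of all 21887 coding genes. The lists hold only peaks named as specific to a genotype, so these counts do not show which cells were sorted. The nearest wide distal peak to Mir137 (mm10 chromosome 3, 118433857 to 118433929) lay 13427846 bp away in the cKO list and 3656554 bp away in the cWT list.

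Microglia are brain macrophages that develop apart from blood monocytes, and miR-137 is a microRNA best known from neurons. Accessible regions away from gene ends are often enhancers, where lineage factors such as PU.1 and signal-driven factors such as AP-1 bind together. Wide accessible regions often hold several bound sites side by side, and some are starts of noncoding RNAs or alternative starts within a coding gene. A peak next to a gene is not shown to control that gene.

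The deleted gene makes a microRNA whose mature strands are printed first because the study turns on its loss, with the seed (bases 2 to 8) in capitals.
mmu-miR-137-3p: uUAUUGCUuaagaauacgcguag
mmu-miR-137-5p: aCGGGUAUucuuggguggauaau

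Although the wide distal peaks avoid the outer ends of coding genes, 41 of them, 32 cKO and 9 cWT, overlapped an annotated transcript start window (RefSeq, 250 bases before to 50 after a start, GRCm38.p6, the mm10 assembly). In cKO 15 of the 32 overlapped start windows of coding genes, 15 those of noncoding genes and 2 those of both. In cWT it was 4 and 5. An overlap could be small, down to 5 bases at Prickle2 in cWT, so it need not hold the start itself. The windows below lie wholly inside a wide distal peak. They are shown because they belong to the peak of lowest p-value in each list, to 2 of the widest cKO peaks, to a site with peaks of both genotypes, and to sites at the innate immune genes Nlrp1b and Cd180, the former chosen after its values were seen. Capitals mark matches on either strand to the motifs described after them. The windows run 5′ to 3′ along the transcript.
Gm11205 start (mm10 chr11:79704320-79704619, plus strand): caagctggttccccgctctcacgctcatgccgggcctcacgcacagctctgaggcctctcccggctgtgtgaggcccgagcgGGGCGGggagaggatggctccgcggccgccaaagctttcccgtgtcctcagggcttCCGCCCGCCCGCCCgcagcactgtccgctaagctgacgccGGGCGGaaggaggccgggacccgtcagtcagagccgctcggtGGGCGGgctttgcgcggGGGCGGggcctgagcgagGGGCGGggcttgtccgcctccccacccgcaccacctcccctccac
Morrbid start (mm10 chr2:128429302-128429601, minus strand): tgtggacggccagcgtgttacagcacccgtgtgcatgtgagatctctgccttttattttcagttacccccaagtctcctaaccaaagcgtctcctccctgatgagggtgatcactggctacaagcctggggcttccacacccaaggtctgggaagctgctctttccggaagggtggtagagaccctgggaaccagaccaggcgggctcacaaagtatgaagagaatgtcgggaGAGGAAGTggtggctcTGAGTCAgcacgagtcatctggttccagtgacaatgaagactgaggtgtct
Stx4a start (mm10 chr7:127841558-127841857, plus strand): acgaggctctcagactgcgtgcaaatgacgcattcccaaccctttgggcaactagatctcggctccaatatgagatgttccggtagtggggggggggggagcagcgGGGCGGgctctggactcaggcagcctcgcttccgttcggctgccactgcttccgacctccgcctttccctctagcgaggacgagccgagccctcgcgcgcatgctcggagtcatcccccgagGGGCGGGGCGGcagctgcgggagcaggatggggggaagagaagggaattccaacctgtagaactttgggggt
Trpv2 start (mm10 chr11:62575377-62575676, plus strand): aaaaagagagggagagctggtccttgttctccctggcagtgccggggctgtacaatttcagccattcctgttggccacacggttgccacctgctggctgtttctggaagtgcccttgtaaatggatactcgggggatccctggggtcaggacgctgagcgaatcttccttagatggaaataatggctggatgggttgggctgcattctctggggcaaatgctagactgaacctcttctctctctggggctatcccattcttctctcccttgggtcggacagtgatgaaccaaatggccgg
Nlrp1b start (mm10 chr11:71230684-71230983, minus strand): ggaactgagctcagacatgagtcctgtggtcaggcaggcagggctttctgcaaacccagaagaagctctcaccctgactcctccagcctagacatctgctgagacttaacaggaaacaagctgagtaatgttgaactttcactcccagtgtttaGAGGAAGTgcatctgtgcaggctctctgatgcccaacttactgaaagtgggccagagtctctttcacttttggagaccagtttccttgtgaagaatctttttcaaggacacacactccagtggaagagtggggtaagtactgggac
1700064M15Rik start (mm10 chr12:99627925-99628224, minus strand): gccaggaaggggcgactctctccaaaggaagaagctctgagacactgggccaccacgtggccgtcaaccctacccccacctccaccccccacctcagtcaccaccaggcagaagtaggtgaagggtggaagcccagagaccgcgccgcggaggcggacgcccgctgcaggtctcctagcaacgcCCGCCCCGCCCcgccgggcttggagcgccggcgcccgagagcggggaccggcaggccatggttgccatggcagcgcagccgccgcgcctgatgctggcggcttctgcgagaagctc
Gm41046 start (mm10 chr13:102665952-102666251, minus strand): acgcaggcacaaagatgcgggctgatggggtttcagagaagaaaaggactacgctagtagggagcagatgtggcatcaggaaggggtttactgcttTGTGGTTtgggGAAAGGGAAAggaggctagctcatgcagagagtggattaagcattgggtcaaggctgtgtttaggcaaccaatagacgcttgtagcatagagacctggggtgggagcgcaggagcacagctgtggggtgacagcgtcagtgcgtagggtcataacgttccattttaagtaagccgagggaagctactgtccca

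The motifs searched were GAGGAAGT (PU.1), CCGGAAGT (other ETS factors), TGACTCA (AP-1), TGTGGTT (RUNX), GGGCGG (SP and KLF factors), the palindromic NRF1 motif and the interferon-stimulated response element, which interferon regulatory factors bind. PU.1 and ETS words share GGAAGT, and GGGCGG matches can overlap each other. The start of Morrbid, a long noncoding RNA known in mouse myeloid cells for restraining the neighbouring death gene Bcl2l11, held 1 PU.1 match and 1 AP-1 match close together. Nlrp1b, an inflammasome sensor, held 1 PU.1 match. The Gm41046 start near Cd180, a Toll-like receptor relative, held 1 RUNX and 1 interferon regulatory factor match. The Gm11205 start held 8 GGGCGG matches, that of Stx4a 3, and that of 1700064M15Rik 2. The Trpv2 window held none of the 7 motifs, which says only that these letters are absent from its 300 bases.

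Over all 35 start windows touched by cKO wide distal peaks, GGGCGG was present in 54.3%, against 35.7% of all 32851 windows in the table, 32.8% of the 204 windows touched by narrower distal cKO peaks and 67.7% of the 99 touched by wide cKO peaks at gene ends. AP-1 was present in 8.57% of the 35, against 5.20% of all windows and 8.33% of those touched by narrower distal cKO peaks. PU.1 was present in 5.71%, against 3.20% and 4.90%, and ETS in 2.86%, against 3.89% and 3.43%. RUNX, NRF1 and the interferon motif were found in 0 of the 35, against 5.27%, 0.971% and 3.44% of all windows. In windows touched by narrower distal cKO peaks they were found in 3.92%, 0% and 3.92%. Among the 9 cWT windows, 5 held GGGCGG, 3 RUNX and 1 the interferon motif, and 0 held the others. Of the 98 windows touched by narrower distal cWT peaks, 41.8% held GGGCGG, 14.3% RUNX and 3.06% the interferon motif. The median GC content was 56.3% in the 35 cKO windows and 55.0% in the 9 cWT windows, against 52.7% over all windows, and it ranged from 35.7% to 79.7% in cKO. These shares are descriptions of few windows; none of them covers chromosome 18, which the start table used here does not hold.

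The wide distal peaks leaned further to the knockout than narrower ones. They made up 5.35% of the cKO list (exact Clopper-Pearson 95% interval 4.89 to 5.85%) and 3.44% of the cWT list (2.86 to 4.10%). The ratio of cKO to cWT peaks was 3.84 (3.14 to 4.74), against 2.48 (2.37 to 2.59) among the 6972 cKO and 2816 cWT narrower distal peaks. Among wide peaks at coding gene ends, 147 in cKO and 56 in cWT, it was 2.63 (1.92 to 3.64). Since width was part of the rule, these ratios carry no test.

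By width, the ratio was 2.59 below 300 bp, 2.39 at 300 to 399 bp, 2.17 at 400 to 499 bp and 3.02 at 500 to 599 bp. Above the limit it was 3.57 at 600 to 699 bp (246 cKO and 69 cWT peaks), 4.26 at 700 to 799 bp (115 and 27), 3.57 at 800 to 999 bp (75 and 21) and 8.33 from 1000 bp (25 and 3). The last interval runs from 2.54 to 43.1, and the intervals of the 4 classes above 600 bp overlap. The ratio just below the limit was already above those of the narrower classes, and its interval overlaps that just above it.

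**Figure D1:**
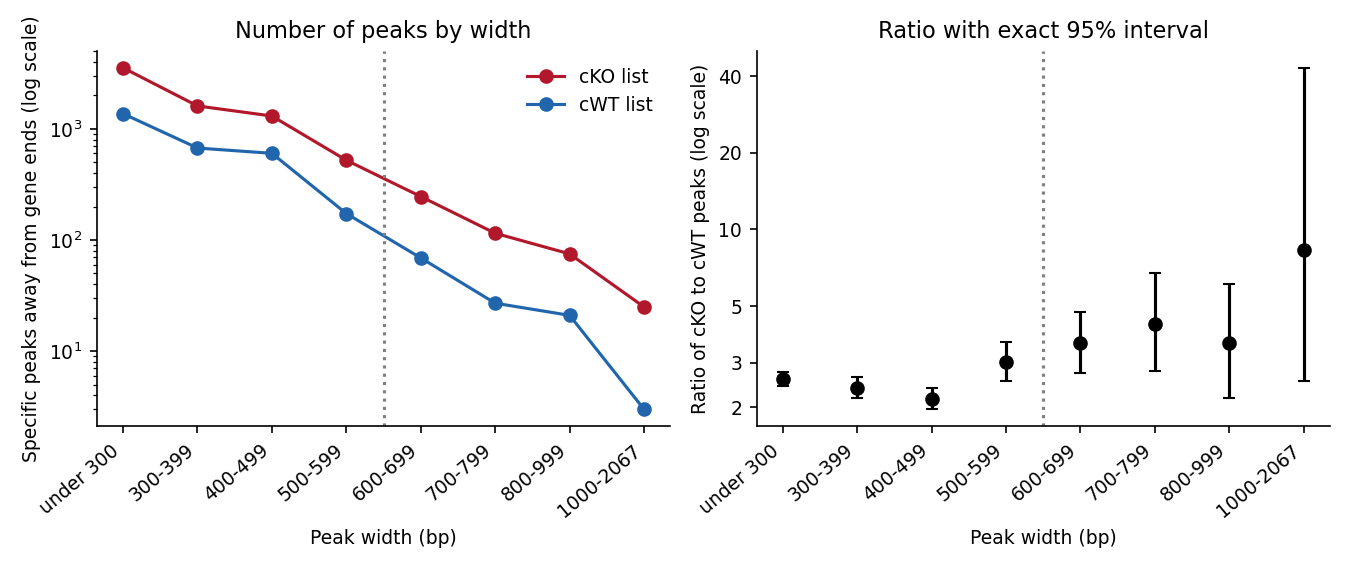
Number of specific peaks more than 1000 bp from coding gene ends by peak width (left, log scale, 1 line per list) and the ratio of cKO to cWT peaks with its exact 95% interval (right, log scale); the dotted line marks 600 bp. The ratio is 2.17 at 400 to 499 bp and 3.57 at 600 to 699 bp, and the widest class rests on 25 and 3 peaks.

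The median width was 688 bp in cKO (quartiles 639 and 779) and 682 bp in cWT (639 and 762). Most members lie near the limit, since 53.4% in cKO and 57.5% in cWT were under 700 bp. Just inside, 12 distal peaks of 600 to 601 bp (10 cKO and 2 cWT) had signals of 5.52 to 47.1 (median 21.1). Just outside, 10 of 598 to 599 bp (6 cKO and 4 cWT) had signals of 9.50 to 39.6 (median 16.6). Both sets pool the 2 lists in different mixes, so no step in signal at the limit is read from them. At the other limit, the cKO midpoints closest to it lay 1006.5 and 1026 bp from a gene end inside it and 994 and 984.5 bp outside it. In cWT they lay 1019.5 and 1022 bp inside and 967 and 867 bp outside. The wide distal peaks covered 340434 bp in cKO, 11.2% of all bases in that list, and 87024 bp in cWT, 7.16%.

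The 7 widest members were all from the cKO list, which holds 79.3% of all members. The widest, 2067 bp, lay between genes 88987 bp from Aebp2, which encodes a cofactor of Polycomb repressive complex 2 (chromosome 6, 140766426 to 140768492, signal 25.9). A peak of 1803 bp lay inside Stx4a, a plasma membrane SNARE gene, 1126 bp from one end of it and over an annotated start (chromosome 7, 127840868 to 127842670, signal 25.7). A peak of 1515 bp lay deep inside Macf1, a microtubule and actin crosslinker gene, 115339 bp from its nearest end (chromosome 4, 123571706 to 123573220, signal 21.9). A peak of 1493 bp lay inside Plek, the gene of the leukocyte protein kinase C substrate pleckstrin (chromosome 11, 16977123 to 16978615, signal 16.6). The Morrbid peak was 1419 bp wide, with its midpoint 4 bp from an end of that RNA gene (chromosome 2, 128428638 to 128430056, signal 28.5). Peaks of 1358 bp in the phosphatase gene Ptpn21, over an annotated start, and of 1331 bp in Nsmaf, a sphingomyelinase adaptor gene, followed. The next were 1177 bp inside Wdfy1, 1171 bp between genes 63658 bp from Commd3, and 1138 bp at Tob2, 1374.5 bp from that antiproliferative gene.

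In the cWT list 3 members reached 1000 bp. The widest, 1206 bp, lay inside Akna, an AT-hook protein gene (chromosome 4, 63408775 to 63409980, signal 41.4). The others were 1053 bp between genes 57424 bp from Nufip1 and 1048 bp between genes 19177.5 bp from Egf, the epidermal growth factor gene. A peak of 996 bp lay 84038.5 bp from the calmodulin gene Calm2 and 122.5 bp from an end of the noncoding gene Gm30984. Peaks of 982 bp inside the small GTPase gene Rab20, 975 bp near Cd180, 970 bp inside the platelet glycoprotein gene Gp5, 965 bp inside Cab39l, 959 bp near Zcchc24 and 957 bp near Gm5373 completed the first 10.

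**Figure D2:**
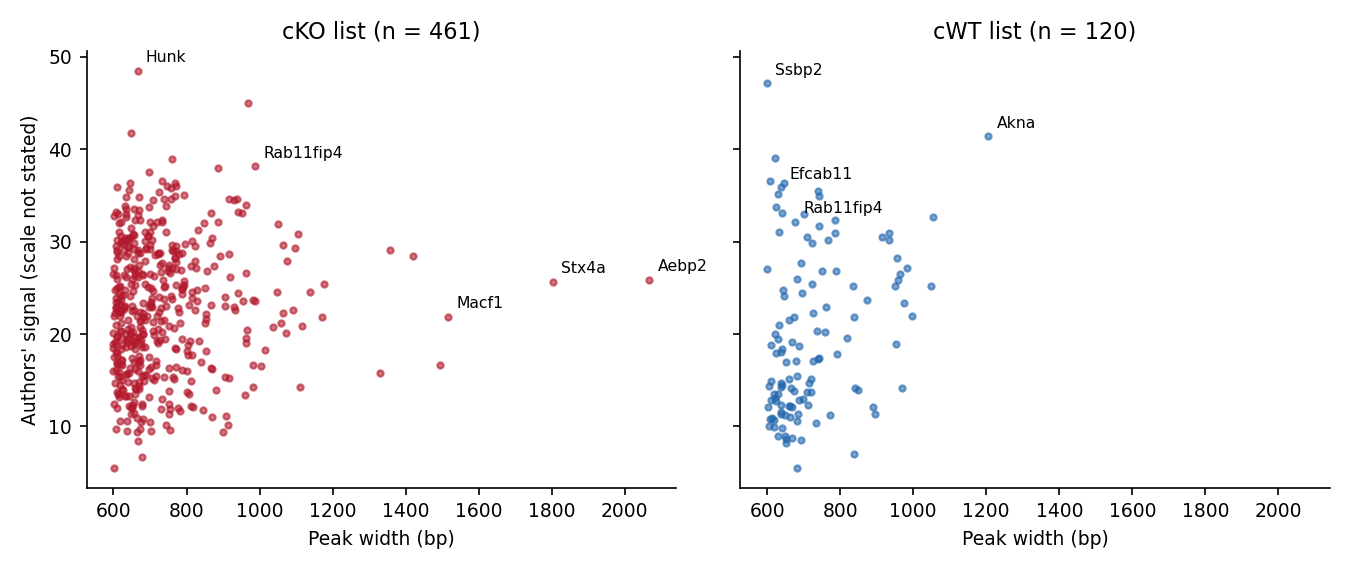
Each point is 1 wide distal peak, with its width (bp) on the x axis and the authors' signal, whose scale is not stated, on the y axis, for the cKO list (left) and the cWT list (right). The widest peaks, at Aebp2, Stx4a and Macf1, have signals of 25.9, 25.7 and 21.9, near the middle of the cKO range of 5.52 to 48.5.

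The authors' signal of the wide distal peaks had a median of 22.7 in cKO (quartiles 17.0 and 28.5) and 17.98 in cWT (12.7 and 26.6). Narrower distal peaks had medians of 16.0 and 13.4. The scale is not stated and may differ between the lists, so the signals are read only within a list. No rank measure of width against signal was computed. Median cKO signals were 21.7 at 600 to 699 bp, 24.8 at 700 to 799 bp, 23.1 at 800 to 999 bp and 22.6 from 1000 bp. In cWT the medians of these classes rose with width, from 14.4 to 22.2, 23.4 and 32.6, the last over 3 peaks. Among named cKO peaks, the widest were not those of highest signal, while the widest cWT peak, at Akna, was among the highest. The highest cKO signal, 48.5, belonged to a peak of 666 bp inside Hunk, a protein kinase gene (chromosome 16, 90396881 to 90397546). B4galt5, a glycosyltransferase gene (45.0, 967 bp), Lrrk1, a kinase gene (41.8, 647 bp), and Fbxo34, an F-box gene (39.0, 761 bp), followed. The highest cWT signal, 47.1, belonged to a peak of exactly 600 bp inside Ssbp2, a single-stranded DNA binding protein gene (chromosome 13, 91701674 to 91702273). Akna (41.4), Tagln2, an actin-binding gene (39.1, 622 bp), Mob3b (36.6, 608 bp) and the sorting nexin gene Snx5 (36.4, 645 bp) came next.

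By the authors' p-value, 4 cKO and 1 cWT wide distal peaks were at 0.05 or below, before adjustment, where the whole lists have 0.0813% and 0.115% of peaks. Peaks named primary, which have the lower p-values, made up 58 of the cKO members (12.6%) and 6 of the cWT members (5%). In the whole lists 2.82% of cKO and 1.38% of cWT peaks were named primary. At an adjusted p under 0.05 there were 0 in either list (0% of all peaks). What this p-value tests is not stated, it belongs to the same lists as the widths, and nothing is read from these counts. The lowest in cKO were at Rab11fip4, a Rab11 effector gene (authors' p-value 0.00574, 987 bp), Syk, the kinase that relays signals of Fc receptors and TREM2 (0.0184, 1050 bp), and the 14-3-3 gene Ywhaz (0.0301, 982 bp). Aebp2 (0.0443) and Arid1a, a chromatin remodelling subunit gene (0.0584, 609 bp), came next. The lowest in cWT were 64226 bp from Efcab11 at the start of the noncoding gene 1700064M15Rik (0.0114, 639 bp), and near Gclc, which encodes the catalytic subunit of glutathione synthesis (0.0715, 624 bp). Nacc2 (0.142, 933 bp), Rab11fip4 (0.159, 676 bp) and Trpv2 (0.198, 786 bp) completed the first 5.

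At 4 sites a wide distal peak of each genotype overlapped the other. Near Rab11fip4 the cKO peak (chromosome 11, 79704021 to 79705007, signal 38.2) and the cWT peak (79703524 to 79704199, signal 32.1) shared 179 bp, and the cKO peak was the one over the Gm11205 start. At Trpv2, a cation channel gene, the cKO peak (chromosome 11, 62575316 to 62576378, signal 29.7) covered an annotated start and shared 71 bp with the cWT peak (62576308 to 62577093, signal 30.9). At Clip2, a microtubule linker gene, the cKO peak (chromosome 5, 134551928 to 134552845, signal 26.2) covered an annotated start and shared 135 bp with the cWT peak (134551368 to 134552062, signal 24.4). Near Cnga2, an olfactory ion channel gene, the peaks (chromosome X, 72023431 to 72024138 in cKO, signal 21.3, and 72022829 to 72023568 in cWT, signal 35.5) shared 138 bp. In these pairs the regions named as specific to each genotype together span 1 stretch of 1310 to 1778 bp and share only part of it.

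**Figure D3:**
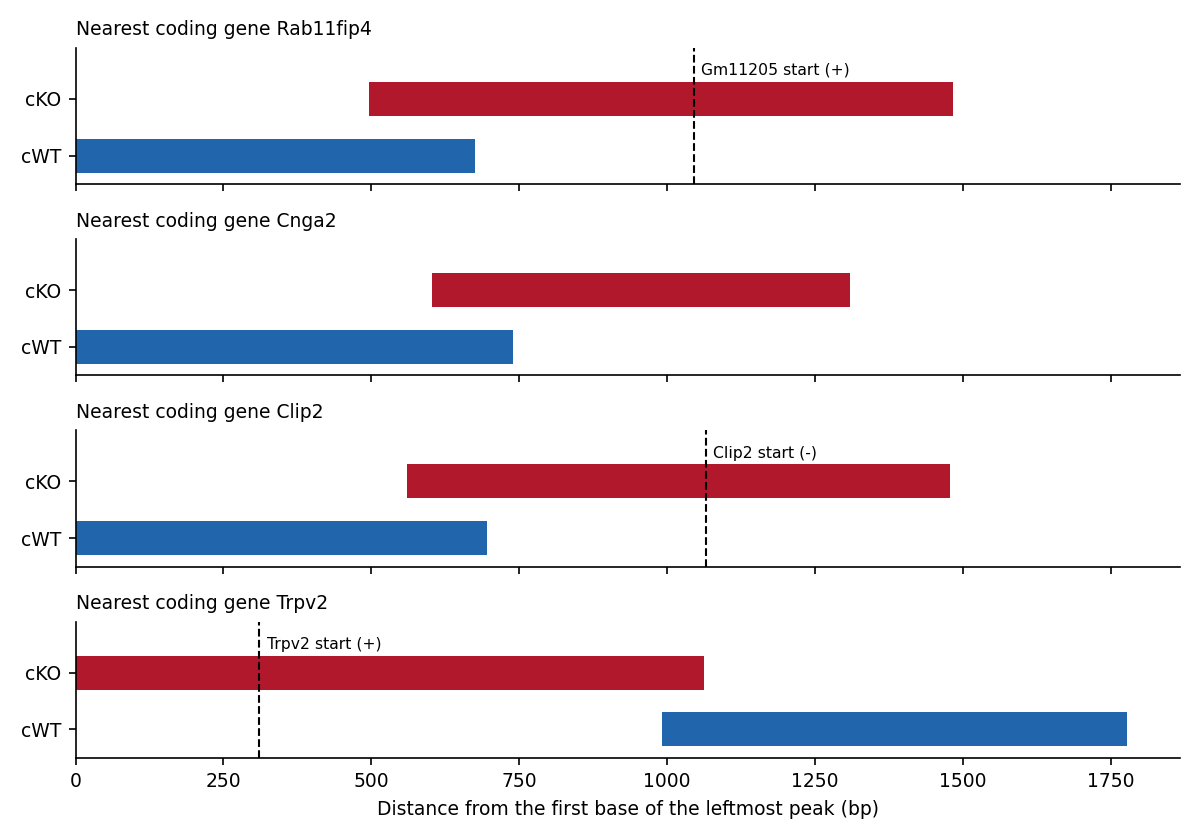
The 4 pairs of overlapping wide distal peaks, drawn to scale by distance (bp) from the first base of the leftmost peak; red bars are cKO peaks, blue bars cWT peaks, and dashed lines annotated starts with their strand. The shared stretch is 179 bp near Rab11fip4, 138 bp near Cnga2, 135 bp at Clip2 and 71 bp at Trpv2, and each of the 3 drawn starts lies in the cKO peak only.

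A further 8 cKO and 7 cWT wide distal peaks overlapped a peak of the other list that was narrower or nearer a gene end, by as little as 3 bp. In all, 12 of 461 cKO members (2.60%, exact 95% interval 1.35 to 4.50%) and 11 of 120 cWT members (9.17%, 4.67 to 15.8%) overlapped a peak of the other genotype. Among narrower distal peaks it was 1.94% and 4.79%. The longer cKO list gives cWT peaks more partners, so the shares of the 2 genotypes are not comparable with each other. At Tob2 the cKO peak of 1138 bp shared 90 bp with a cWT peak of 1086 bp. Of the further 7 cWT peaks, those near Nufip1, Rab20, Cd180 and Snx5 shared 90, 15, 74 and 3 bp with a cKO peak. At Irf2, chosen after its value was seen and an interferon regulatory factor gene, the cWT peak (chromosome 8, 46817337 to 46818170) shared 35 bp with a cKO peak of 303 bp. The only other pair of members within 10 kb was at Macf1, with a gap of 6917 bp.

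No difference between the genotypes was detected in how often wide distal peaks lay inside coding genes. In cKO 259 of 461 (56.2%, exact 95% interval 51.5 to 60.8%) were inside a gene and 202 between genes, and in cWT 73 of 120 (60.8%, 51.5 to 69.6%) and 47. The odds ratio was 0.826 (0.535 to 1.27, two-sided Fisher's exact test, adjusted p = 0.611). Narrower distal peaks lay inside genes at 59.6% in cKO and 58.5% in cWT. Wide against narrower, Fisher's exact test gave an odds ratio of 0.870 in cKO (0.717 to 1.06, adjusted p = 0.351) and of 1.10 in cWT (0.748 to 1.64, adjusted p = 0.819). The adjustment was by Benjamini-Hochberg over 9 tests, which include 3 on annotated starts whose p-values are not given. The median length of the host gene was 88.0 kb for wide and 86.6 kb for narrower cKO peaks, and 106 and 101 kb in cWT. From the midpoint to a coding gene end the median was 17550 bp for cKO and 28716.5 bp for cWT members. For narrower distal peaks it was 16520.25 and 21301.25 bp. Beyond 100 kb lay 43 of 461 cKO and 15 of 120 cWT members, against 673 of 6972 and 361 of 2816 narrower ones.

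In the knockout, ends of noncoding genes lay near more of the wide than of the narrower distal peaks. Within 1000 bp of such an end lay 49 of 461 wide distal cKO peaks (10.6%, 7.97 to 13.8%) and 451 of 6972 narrower ones (6.47%, 5.90 to 7.07%). The odds ratio was 1.72 (1.23 to 2.36, Fisher's exact test, p = 0.00141 before adjustment, adjusted p = 0.00645). In cWT it was 14 of 120 (11.7%, 6.53 to 18.8%) against 207 of 2816 (7.35%), an odds ratio of 1.66 (0.864 to 2.98, Fisher's exact test, adjusted p = 0.324). Between the genotypes the odds ratio among wide distal peaks was 0.901 (0.468 to 1.84, Fisher's exact test, adjusted p = 0.835), so the cKO result is not shown to differ from cWT. The cKO difference was not past the threshold among peaks with authors' p-values up to 0.5 (Fisher's exact test, odds ratio 1.56, adjusted p = 0.421). The adjusted p of 0.00645 from Fisher's exact test is also that of a cKO start test added after its values were seen. The adjusted value therefore depends on having that test in the family.

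Annotated transcript starts were compared after their values were seen, so the shares are a description with no test. The midpoint lay within 250 bp of a start, coding or noncoding, in 24 of 453 wide distal cKO peaks outside chromosome 18 (5.30%, 3.42 to 7.78%) and in 172 of 6773 narrower ones (2.54%, 2.18 to 2.94%). In cWT it was 6 of 117 (5.13%, 1.905 to 10.8%) against 83 of 2704 (3.07%, 2.45 to 3.79%). The measure is not independent of the noncoding ends, since 12 of the 24 cKO and 3 of the 6 cWT peaks were also counted there.

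**Figure D4:**
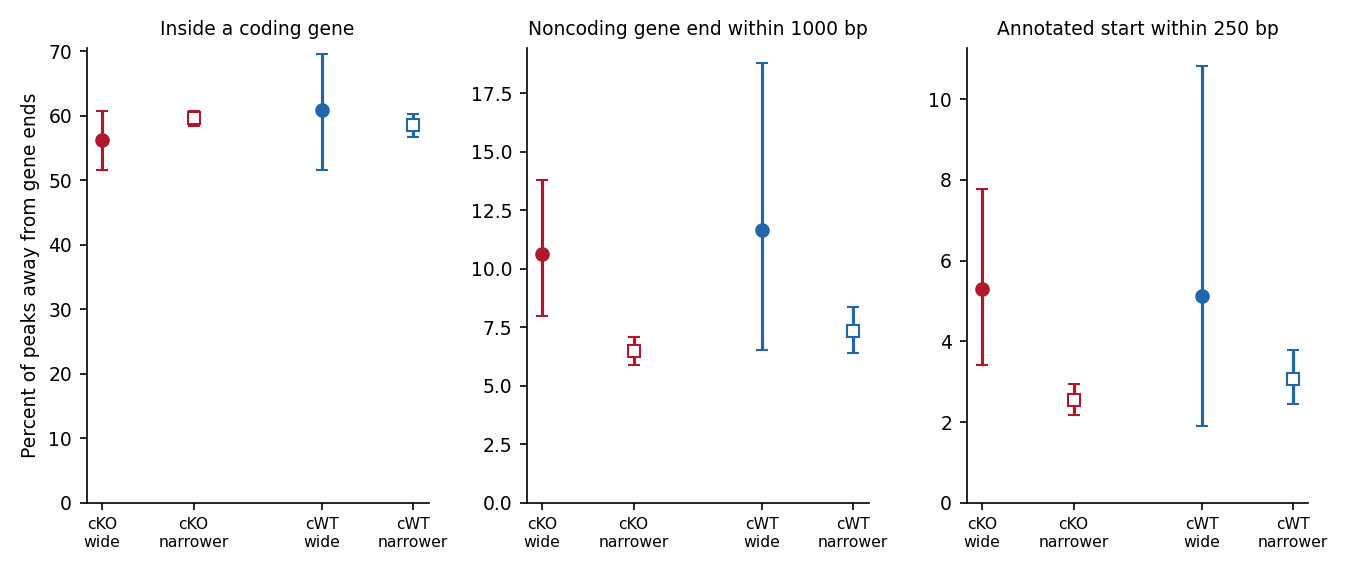
Percent of specific peaks away from coding gene ends that lie inside a coding gene (left), within 1000 bp of a noncoding gene end (middle) and within 250 bp of an annotated start (right); filled circles are wide and open squares narrower peaks, with exact 95% intervals over peaks. In cKO noncoding ends are near 10.6% of wide and 6.47% of narrower peaks, and starts near 5.30% and 2.54%.

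Of the 49 cKO peaks at noncoding ends, 35 were at long noncoding RNAs, 4 at tRNA genes, 4 at pseudogenes, 2 at transcribed pseudogenes, 2 at microRNA genes and 1 each at a snRNA and a snoRNA gene. Of the 14 in cWT, 11 were at long noncoding RNAs, 2 at genes annotated as miscellaneous RNA and 1 at a transcribed pseudogene. The 10 widest were Morrbid, Gm2848 near Syk (1050 bp), the transcribed pseudogene Gm11787 (1048 bp), Gm34157 near the corepressor gene Tle3 (1037 bp), Gm30984 (cWT, 996 bp), Gm11205, the snRNA gene Gm23971 (982 bp), E230013L22Rik at Rab20 (cWT, 982 bp), Gm41046 near Cd180 (cWT, 975 bp) and 1700054O19Rik near Zcchc24 (cWT, 959 bp). Malat1, an abundant nuclear RNA, had a cKO peak of 913 bp with its midpoint 545 bp from an end (chromosome 19, 5794689 to 5795601, signal 10.2). Jpx, known for activating Xist in X inactivation, had a cKO peak of 628 bp 217.5 bp from an end (chromosome X, 103493462 to 103494089, signal 22.9). Malat1, Jpx and the next example were chosen after their values were seen. A cKO peak of 654 bp (chromosome 13, 83738253 to 83738906, signal 12.3) held the whole hairpin of Mir9-2 (83738814 to 83738885), a microRNA gene known from neural progenitors and lying 71500.5 bp from Mef2c. A peak of the cWT list lay 70 bp from this cKO peak. The mature strand of Mir9-2 is shown with the seed in capitals because the cKO peak spans it.
mmu-miR-9-5p: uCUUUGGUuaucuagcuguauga

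Wide distal peaks were spread thinly over genes. With each peak assigned to the coding gene of nearest end within 100 kb, 418 cKO and 105 cWT members were assigned to 488 genes, 392 with a cKO and 104 with a cWT peak. No gene had 3 or more, and 35 had 2. These were 26 genes with 2 cKO peaks, 8 with 1 of each genotype and 1, Zcchc24, with 2 cWT peaks. The examples that follow were chosen after their values were seen. Inpp5d, which encodes the phosphatase SHIP1 that restrains immune receptor signalling in microglia, had both peaks inside it (chromosome 1, 87621051 to 87621723, signal 20.7, and 87657898 to 87658587, signal 15.6). Pik3r5, a regulatory subunit gene of the leukocyte phosphoinositide 3-kinase gamma, had 1 inside it (signal 9.43) and 1 between genes 14043 bp away (signal 33.0). Both peaks of Ifngr1, a receptor gene for interferon gamma, lay between genes, 21508 and 99968.5 bp away (signals 29.8 and 20.3). Tspan14, a tetraspanin gene, had 2 inside it (17.4 and 33.8), as did the phosphatase gene Ptpre (21.2 and 6.64), the chromatin remodeller gene Chd9 (25.1 and 27.4), the corepressor gene Bcor (16.7 and 29.5), and Sh3pxd2a (9.52 and 23.0).

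Some members are parts of a wider region. In cKO 21 wide distal peaks (4.56%) and in cWT 3 (2.50%) adjoined another peak of the same list, and all 24 had the same signal as their neighbour. The widest such stretches were at Osbp and Furin. Near Furin, a proprotein convertase gene, peaks of 734 and 658 bp adjoin over 1392 bp (chromosome 7, 80425615 to 80427006, both 32.4). Near Osbp, an oxysterol-binding protein gene, peaks of 705 and 929 bp adjoin over 1634 bp (chromosome 19, 12010949 to 12012582, both 22.9), at the tRNA genes n-TLtaa4 and n-TVtac1. The 2 peaks counted for each of these genes may thus be 1 region. Joining adjoining peaks before measuring the width gave 536 cKO and 135 cWT members, of which 96 and 18 consist of at least 2 listed peaks. The ratio was then 3.97.

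Neighbours of the same list were less common around wide than narrower distal cKO peaks, and in cWT the interval for wide peaks holds the share of narrower ones. Another peak of the same list lay within 10 kb of 20.6% of cKO members (17.0 to 24.6%) and 31.5% of narrower cKO peaks (30.4 to 32.6%). In cWT it was 9.17% (4.67 to 15.8%) and 13.3%. For peaks of the other list the cKO shares were 13.2% and 11.5% and the cWT shares 28.3% and 25.1%. Neighbouring peaks of a list count each other, so these shares carry no test. All 20 chromosomes in the lists held members of both genotypes. They were 3.06% (chromosome 6) to 7.20% (chromosome 7) of the cKO peaks of a chromosome, and 1.15% (chromosome 19) to 7.03% (chromosome 14) of the cWT peaks.

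Genes of microglial themes carried a wide distal peak in 26 of 315 cases (8.25%), all protein-coding genes in 488 of 21887 (2.23%), and markers of other cell types in 1 of 96 (1.04%). Read only over genes with some specific peak away from gene ends, the shares were 26 of 180 (14.4%), 488 of 5160 (9.46%) and 1 of 30 (3.33%). The lists are short and were compiled with earlier results of these data known, so the shares are descriptions with no test.

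Lineage factor genes had a wide distal peak at 6 of 30 members, all from the cKO list, which holds 79.3% of wide distal peaks. With assignment up to 10 kb it was 1 of 30, and theme genes with a member numbered 8 in place of 26. Of all 21887 protein-coding genes, 184 had a member up to 10 kb. Mef2a, a MADS-box factor gene, had one 68471 bp away (chromosome 7, 67444574 to 67445280, signal 31.7), and its relative Mef2c, named after its value was seen, that at Mir9-2. Cebpb, a myeloid factor gene, had one 8285 bp away (chromosome 2, 167680302 to 167680958, signal 30.7), which adjoins a peak of 559 bp. The ETS factor genes Etv5 (22277 bp away, 815 bp wide, signal 30.1) and Ets1 (inside it, 675 bp, signal 19.3) and the helix-loop-helix gene Tcf4 (inside it, 1110 bp, signal 14.3) completed them. Tcf4 is also the 1 of 20 reported miR-137 target genes with a member.

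Genes of AP-1 and other bZIP factors had one at 5 of 26, and at 2 of 26 up to 10 kb. Bach1, a heme-regulated repressor gene, had a cKO peak inside it 1126 bp from an end (chromosome 16, 87699774 to 87700386, signal 33.0). Bach2 (67850 bp away, 803 bp, signal 17.8), Nfe2l2, which encodes the antioxidant regulator Nrf2 (26744 bp away, 679 bp, signal 20.5), and Batf3 (22815 bp away, 639 bp, signal 14.8) had cKO peaks. Fos, the AP-1 gene induced early by stimulation, had the cWT peak of this list, 1022 bp from an end (chromosome 12, 85477910 to 85478682, signal 11.2).

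Among antigen presentation genes 3 of 21 had a cKO member, at H2-D1, a class I gene (7177 bp away, signal 24.8), Lgmn, a lysosomal protease gene (11837 bp away, signal 19.9), and Nlrc5, the class I transactivator gene (inside it, signal 16.0). Phosphoinositide and small GTPase regulators had one at 3 of 26, Inpp5d, Pik3r5 and Rapgef5 (28842 bp away, signal 12.7). Cytokine genes had one at 2 of 23, Tgfb1, the homeostatic growth factor of microglia (1890 bp away, 1075 bp wide, signal 27.8), and Ccl2, a monocyte chemokine gene (11797.5 bp away, signal 14.0). Disease-associated genes had one at 2 of 28, a cKO peak at the fatty acid carrier gene Fabp5 (signal 27.5) and a cWT peak at the cathepsin gene Ctsb (signal 32.4).

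The other microglial lists had 1 or 0. Of 25 homeostatic genes P2ry12, the ADP receptor gene, had a cKO peak (chromosome 3, 59263675 to 59264308, signal 13.3). Its midpoint lay 1006.5 bp from an annotated start of P2ry12, which is also the nearest gene end, and inside the gene Med12l. Tnfaip3, a brake on NF-kB, was the 1 of 26 in its list (47816 bp away, signal 24.0), Ifngr1 the 1 of 26 JAK-STAT genes, and Myc the 1 of 25 cell cycle genes (67091.5 bp away, signal 34.9). Pparg, a lipid-sensing nuclear receptor gene, was the 1 of 24 lipid genes, with a cWT peak inside it (signal 18.8). None of 27 phagocytosis and complement genes had a member, and 15 of them had a specific peak away from gene ends. Over all coding genes the shares were 2.23%, and 9.46% of those with such a peak. No lack is therefore read from lists this short, here or in those that follow. Among the 6 lists of other cell types, 0 of 18 neuronal, 0 of 15 astrocyte, 0 of 16 oligodendrocyte, 0 of 15 vascular and 0 of 16 other macrophage genes had one. The 1 of 16 lymphocyte genes was Lck (inside it, signal 28.7).

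**Figure D5:**
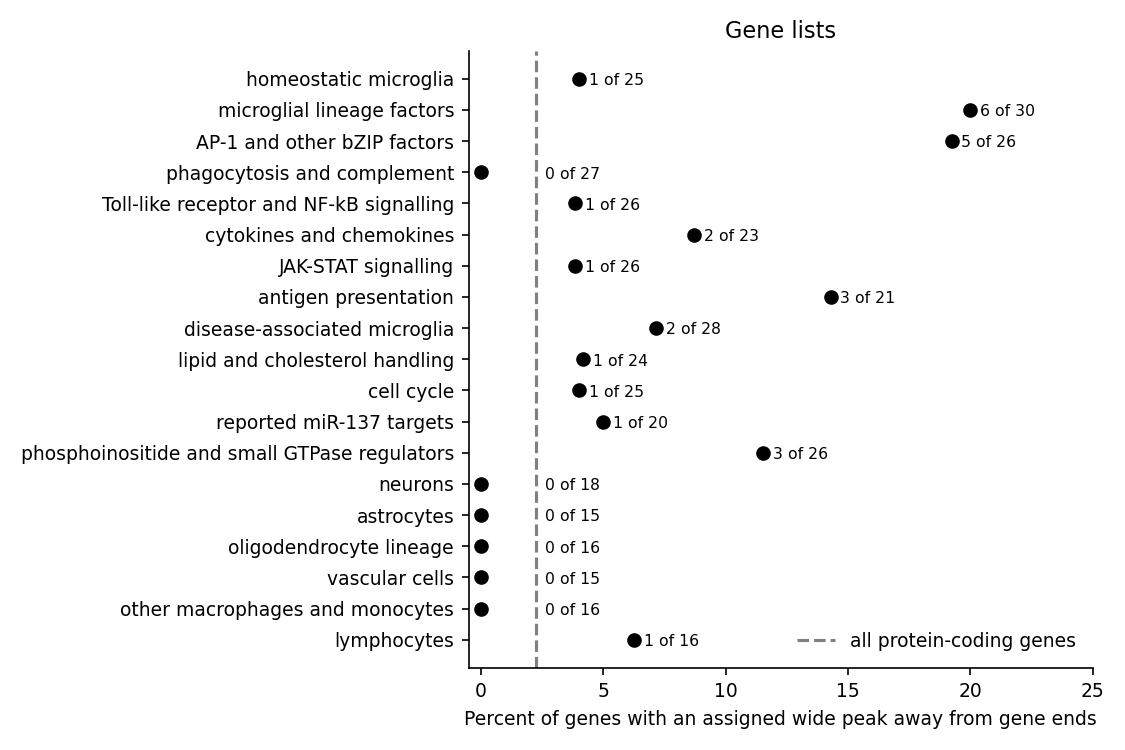
Percent of the coding genes of each list with an assigned wide distal peak of either genotype (x axis), with the number of genes; the dashed line is the 2.23% of all protein-coding genes. Up to 100 kb, lineage factors (6 of 30) and AP-1 and other bZIP factors (5 of 26) have the highest shares among 19 lists. With assignment up to 10 kb they have 1 and 2, and all 21887 protein-coding genes have 184.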

How the data were processed

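ATAC-seq values came from 2 headerless peak lists, 1 per genotype, with no values per library. The builds GRCm38 and mm10 are named in the submitters' processing notes, as are HOMER 4.11, Bowtie2 2.4.4 and MACS2 2.2.7.1. Not given in the sources used here are the step of each, read shifting, how replicates were combined and the rule for specific peaks. The score the authors deposited equals -125 times log2 of the p-value, rounded down, in all peaks. The signal they deposited has no stated scale. The p-value and adjusted p-value columns they deposited were read from their layout and values, and what they test is not stated. The authors' lists may differ in depth, which can change both the number and the width of peaks.

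Gene spans and start windows came from RefSeq tables of GRCm38.p6, the same assembly, without exons. Width is column 3 minus column 2, and distances run from the midpoint. Motifs were exact matches. Of 426 gene list entries, 2 had no coding match. The members and the lists were chosen with earlier results of these data known. Named peaks are the 10 widest, 5 of highest signal and 5 of lowest p-value per list; named genes are up to 5 per list, sites of both genotypes within 10 kb and the 10 widest at noncoding ends. The start comparison was added after seeing the data. A rule naming genes with 3 or more peaks found 0. Fisher's tests were tried on simulated data. Python 3.11.15, numpy 2.4.6, pandas 2.3.3, scipy 1.17.1 and matplotlib 3.10.9 were used.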

Additional observations from a re-analysis of the deposited data

How the results depend on the processing

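No paired analysis was possible because neither list gives a value for a single library, and for the same reason no replicate could be left out. The ratio of 3.84 moved to 8.67 among peaks with authors' p-values up to 0.5, where 182 cKO and 21 cWT members were left, and under the other 7 alternatives it was 3.35 to 4.17. The cut at 0.5 kept 39.5% of cKO and 17.5% of cWT members. Of narrower distal peaks it kept 8.41% in cKO and 4.01% in cWT, so it moved their ratio towards cKO as well. Member counts were 983 and 293 from 500 bp and 100 and 24 from 800 bp, and 305 in cKO beyond 10000 bp from gene ends.

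The excess of noncoding ends in cKO was past the threshold under 6 of 7 alternatives, and not with p-values up to 0.5 (odds ratio 1.56). The cKO odds ratio for annotated starts, a comparison chosen after seeing the data and here a description, was 2.15. It was 2.82 from 800 bp, 2.03 beyond 10000 bp, 1.34 with p-values up to 0.5 and 1.498 within 150 bp. The causes were not tested.

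Odds ratios that were not past the threshold crossed 1 in 14 cases, with adjusted p of at least 0.247. From 500 bp the interior odds ratios were 1.18 between genotypes, 1.01 in cKO and 0.875 in cWT, and with p-values up to 0.5 it was 0.820 in cWT. For noncoding ends between genotypes it was 1.06 beyond 10000 bp and 1.004 by the nearest edge. For starts between genotypes it was 0.927 from 500 bp, 0.847 from 800 bp, 0.900 beyond 3000 bp, 0.958 beyond 10000 bp, 0.884 by the nearest edge, 0.369 with p-values up to 0.5, 0.547 within 150 bp and 0.912 within 500 bp.

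With assignment up to 10 kb, 7 genes in place of 35 had 2 members. Theme genes with a member were then 8 in place of 26, and all coding genes with a member 184 in place of 488. Theme genes with a member were 52 from 500 bp and 5 from 800 bp. The depth is unknown, so a limit set by depth could not be worked out.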
